A study of Homo sapiens with 4 samples.

Results

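The 4 ID genes, BAMBI and the 3 E-protein genes TCF3, TCF4 and TCF12 were followed in SH-SY5Y, a human neuroblastoma cell line, after an siRNA against LSD1 (siLSD1, 2 arrays) or a control siRNA (siControl, 2 arrays). LSD1 is a histone lysine demethylase encoded by KDM1A. Per the submitters' design text the 2 arrays of a group come from separate transfections, so the spread is that between transfections of 1 cell line. Every probe set whose platform annotation gives one of these 8 symbols and no other was kept, which gave 36 of the 54675 probe sets on the arrays: 9 for ID1 to ID4, 1 for BAMBI and 26 for the E proteins. The genes were selected on measured values of this comparison, because ID genes had the smallest p among TGF-beta signalling genes in it. Their differences are therefore given as a description, without p-values.

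ID proteins are helix-loop-helix proteins without the basic region that contacts DNA. They pair with E proteins, which are basic helix-loop-helix factors that bind E-box sequences, and keep them from DNA and from their tissue-specific partners such as HAND2 and TWIST1. ID genes are direct targets of BMP signalling through SMAD proteins in many cell types, and BAMBI is a membrane protein that resembles a receptor of this family, lacks the kinase domain and dampens the signal. In neural crest and sympathetic cells, the tissue from which neuroblastoma arises, BMP signals and these factors act in early differentiation.

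The sequences directly upstream of the 4 ID genes and BAMBI are shown because the ID genes led to the choice of these members and BAMBI acts on the BMP signal that induces them. Each is the RefSeq window of 250 bases before the gene's start on GRCh38.p14, 5′ to 3′ on the gene's strand, with E-box matches (CANNTG) in capitals for the ID genes and matches to the GC-rich SMAD motif GGCGCC in capitals for BAMBI. All 5 genes were found in the RefSeq table with 1 window each.
ID1, chr20:31605039-31605288, plus strand: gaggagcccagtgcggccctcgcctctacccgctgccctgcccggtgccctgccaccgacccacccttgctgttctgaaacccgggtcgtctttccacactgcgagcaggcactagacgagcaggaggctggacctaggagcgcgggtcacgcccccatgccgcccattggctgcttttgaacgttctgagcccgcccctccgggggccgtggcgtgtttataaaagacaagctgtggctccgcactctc
ID2, chr2:8681806-8682055, plus strand: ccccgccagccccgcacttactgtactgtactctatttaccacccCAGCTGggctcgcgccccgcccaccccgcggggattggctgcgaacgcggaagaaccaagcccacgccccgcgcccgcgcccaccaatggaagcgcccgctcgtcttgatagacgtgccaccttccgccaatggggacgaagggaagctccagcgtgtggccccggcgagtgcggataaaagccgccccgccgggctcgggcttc
ID3, chr1:23559502-23559751, minus strand: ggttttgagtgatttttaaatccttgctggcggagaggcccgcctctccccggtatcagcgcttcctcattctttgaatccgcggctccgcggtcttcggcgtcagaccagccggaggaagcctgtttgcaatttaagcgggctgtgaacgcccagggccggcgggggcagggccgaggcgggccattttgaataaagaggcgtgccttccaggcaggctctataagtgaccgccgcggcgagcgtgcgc
ID4, chr6:19837120-19837369, plus strand: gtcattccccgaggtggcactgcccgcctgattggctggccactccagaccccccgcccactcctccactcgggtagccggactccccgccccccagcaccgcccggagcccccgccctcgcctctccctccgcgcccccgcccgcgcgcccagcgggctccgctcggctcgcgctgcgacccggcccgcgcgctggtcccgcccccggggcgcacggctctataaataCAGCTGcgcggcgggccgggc
BAMBI, chr10:28677271-28677520, plus strand: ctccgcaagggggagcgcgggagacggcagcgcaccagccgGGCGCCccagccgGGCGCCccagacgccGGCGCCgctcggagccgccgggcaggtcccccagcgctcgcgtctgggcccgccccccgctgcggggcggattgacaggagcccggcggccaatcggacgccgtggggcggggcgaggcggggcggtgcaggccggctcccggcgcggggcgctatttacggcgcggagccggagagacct
Matches were searched on both strands, with positions counted back from -1, the base before the start. The E-box CANNTG was found once upstream of ID2, as CAGCTG at position -205, and once upstream of ID4, as CAGCTG at position -21. It was not among the letters of the ID1, ID3 and BAMBI windows, and 61.8% of the 35114 RefSeq windows of this length held at least 1. GGCGCC was found 3 times upstream of BAMBI, at positions -209, -196 and -181, against 16.4% of all windows with at least 1, and in none of the 4 ID windows. The SMAD-binding sequence CAGAC was found once each upstream of ID3 and ID4 and 2 times upstream of BAMBI (38% of all windows). The TATA motif TATAAA was found at position -31 in ID1, where it overlapped a match on the other strand at -33, and at position -29 in ID4 (10.7% of all windows). These are matches of letters and were not tested for binding. Sequence outside the 250 bases was not searched, so an absent motif says nothing about sites further away.

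All levels below are log2 signals after quantile normalization, and all differences are siLSD1 minus siControl on the log2 scale. A probe set was tested if its mean over the 4 arrays reached 3.62, the 40th percentile of probe sets with 1 symbol, and 24655 probe sets of 12876 genes did so. KDM1A had signals of 8.40 and 8.54 on the siLSD1 arrays, against 9.79 and 9.78 on the siControl arrays, a difference of -1.32 (95% interval -1.70 to -0.94), so the targeted transcript was at 40.04% of its control level. It had the smallest p of all probe sets in limma (6.4e-05), with an adjusted p of 0.994. In limma's moderated test 0 probe sets were higher and 0 lower at an adjusted p under 0.05. At an unadjusted p under 0.05 there were 457 higher (1.85%) and 361 lower (1.46%). Of 11 measured neuroblastoma markers 10 were above the filter, among them PHOX2A, DBH, GATA3, ISL1 and CHGA, and TH was below it. The array siControl replicate 1 stood apart the most, with a mean correlation of 0.946 with the others, whereas the other 3 arrays had 0.957 to 0.961. The number of arrays limits the precision, and the 95% interval of a difference had a median half-width of 0.72.

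Of the 36 member probe sets 29 passed the filter, and 7 did not. The 29 had a median difference of 0.18, with 20 higher and 9 lower means in siLSD1 cells, beside a median of -0.0043 and 49.4% higher over all tested probe sets. Both siLSD1 arrays lay above both siControl arrays for 10 of them, where the share over all tested probe sets was 16.1%, and below for 3, where it was also 16.1%. Because the comparison chose the genes, nothing is read from these shares. The ID and BAMBI probe sets had a median difference of 0.43, with 7 of 7 higher, and the E-protein probe sets one of 0.11, with 13 of 22 higher. For 26 of the 29 the difference was smaller than the larger gap between replicates of a group. The plot of differences shows all 29 with their intervals.

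**Figure D1:**
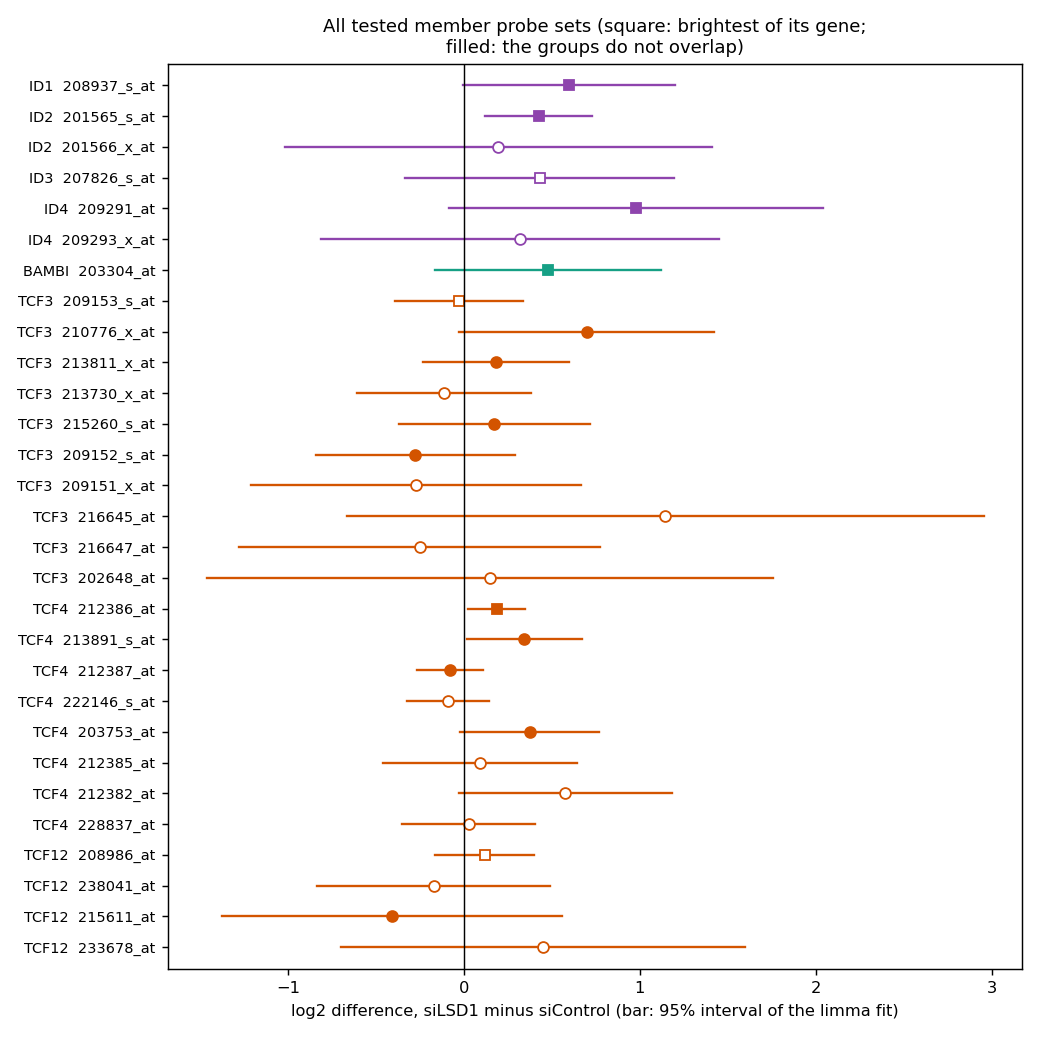
Difference in log2 signal, siLSD1 minus siControl, for the 29 tested probe sets of the 8 genes, with 95% intervals from limma. Squares mark the brightest probe set of a gene, and filled symbols mark groups that do not overlap. The 7 ID and BAMBI values lie between 0.20 and 0.98, and the 22 E-protein values lie between -0.41 and 1.15 on both sides of 0.

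ID1, an inhibitor of differentiation whose transcript responds quickly to BMP, had 1 probe set (208937_s_at). Its signal was 8.66 and 9.27 on the siLSD1 arrays, against 8.19 and 8.55 on the siControl arrays. The groups did not overlap, but siLSD1 replicate 1 lay only a little above siControl replicate 2. The difference was 0.60 (95% interval -0.0061 to 1.20), or 1.51-fold higher, with group means of 8.97 ± 0.43 in siLSD1 and 8.37 ± 0.25 in siControl cells (SD, n = 2 each). The gap of 0.61 between the siLSD1 replicates was as large as the difference between the groups. Without siLSD1 replicate 2 the difference was 0.29, and without siLSD1 replicate 1 it was 0.91.

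ID2, which is also known to bind the retinoblastoma protein, was measured by 2 probe sets. On 201565_s_at it had 10.10 and 10.09 on the siLSD1 arrays, against 9.73 and 9.60 on the siControl arrays. Here the replicates lay close together in both groups, and the groups were clearly apart. The difference was 0.43 (95% interval 0.12 to 0.73), or 1.34-fold, and it stayed between 0.36 and 0.49 when any 1 array was left out. This was the only ID or BAMBI probe set for which the difference exceeded both replicate gaps (0.017 in siLSD1 and 0.13 in siControl).
The other ID2 probe set, 201566_x_at, carries probes that also match other sequences. It read 8.15 and 8.81 on the siLSD1 arrays, against 9.14 and 7.42 on the siControl arrays. The control arrays were its highest and its lowest values, so the groups overlapped. Its difference of 0.20 became -0.67 when siControl replicate 2 was left out, and 1.03 when siControl replicate 1 was.

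ID3, which is often co-expressed with ID1, had 1 probe set (207826_s_at). It read 8.06 and 9.02 on the siLSD1 arrays, against 7.97 and 8.25 on the siControl arrays. siLSD1 replicate 2 was high, and siLSD1 replicate 1 lay between the control values. The difference was 0.43 (95% interval -0.33 to 1.19), and without siLSD1 replicate 2 it was -0.047.

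ID4, a member expressed in the developing nervous system, had 5 probe sets, of which 2 were above the filter. On 209291_at it had 4.93 and 6.12 on the siLSD1 arrays, against 4.48 and 4.60 on the siControl arrays. Both siLSD1 values were above both controls, and siLSD1 replicate 2 was far above the other 3 arrays. The difference of 0.98 (95% interval -0.084 to 2.04), or 1.97-fold, was 0.37 without siLSD1 replicate 2.
On 209293_x_at the same gene had 5.07 and 4.98 on the siLSD1 arrays, against 5.36 and 4.06 on the siControl arrays. This probe set carries probes that also match other sequences. The groups overlapped here, and the difference of 0.32 turned to -0.33 without siControl replicate 2. The 3 dimmer ID4 probe sets had values from 0.93 to 4.09, with differences of 0.77, 0.78 and -0.50, and such dim signals have no settled order.

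BAMBI, the pseudoreceptor, had 1 probe set (203304_at). It read 7.72 and 8.21 on the siLSD1 arrays, against 7.68 and 7.30 on the siControl arrays. The groups did not overlap, with siLSD1 replicate 1 just above siControl replicate 1. The difference was 0.48 (95% interval -0.16 to 1.12), or 1.39-fold, and it was 0.23 without siLSD1 replicate 2 and 0.29 without siControl replicate 2. The plot of levels shows these values array by array.

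**Figure D2:**
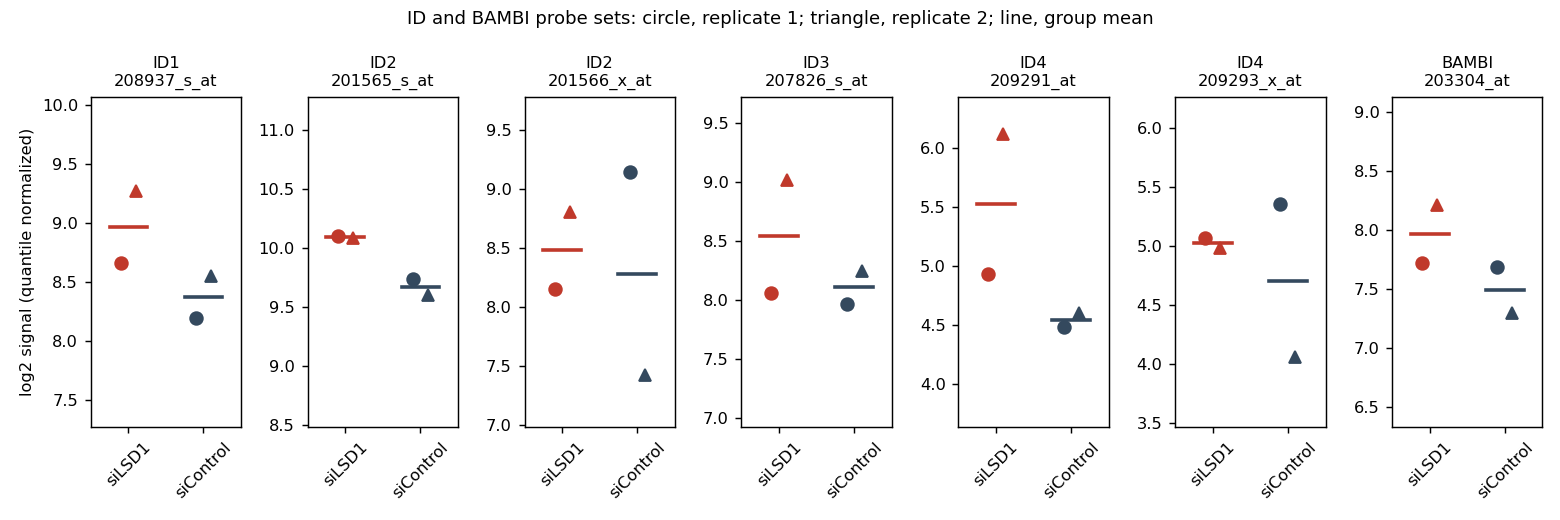
Log2 signal (quantile normalized) of the 7 tested ID and BAMBI probe sets on the 2 siLSD1 arrays and the 2 siControl arrays, with circles for replicate 1, triangles for replicate 2 and lines for group means. Each panel spans the same log2 range around its own mean, so heights are comparable within a panel only. The groups are apart for ID1, ID2 (201565_s_at), ID4 (209291_at) and BAMBI, and siLSD1 replicate 2 is the highest point for ID1, ID3, ID4 (209291_at) and BAMBI.

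The array siLSD1 replicate 2 was the highest of the 4 for 4 of the 5 brightest ID and BAMBI probe sets. The exception was ID2, where siLSD1 replicate 1 was slightly higher. Over all tested probe sets siLSD1 replicate 2 was the highest for 25.8% and siLSD1 replicate 1 for 18.9%. The choice of genes on this comparison favours a siLSD1 array as the highest, so nothing is read from the count of 4. The median deviation of the 7 ID and BAMBI probe sets from their means was -0.0070 and 0.48 on the siLSD1 arrays, against -0.15 and -0.43 on the siControl arrays. siLSD1 replicate 1 thus lay near the middle of the series, and siControl replicate 2 was the lowest by this measure.
Summed signals of cell type markers varied between these arrays too. The summed linear signal of the 7 fibroblast markers, 6 of them above the filter and FAP below it, was 859 and 991 on the siLSD1 arrays, against 866 and 627 on the siControl arrays, with the same highest and lowest arrays. The 4 measured blood markers summed to 42.2 and 50.1 in siLSD1 and to 40.02 and 36.6 in siControl cells, with HBB above the filter and PTPRC, CD3E and LYZ below it. Their highest and lowest arrays were the same too, so this order was not particular to the fibroblast markers. It did not hold for the epithelial, Schwann cell and neuroblastoma sums that follow. Epithelial markers, with EPCAM, KRT8 and KRT18 above the filter and KRT5, KRT19 and CDH1 below, summed to 72.3 and 87.9 in siLSD1 and to 49.5 and 77.7 in siControl cells. The 3 measured Schwann cell markers, of which MBP was above the filter and S100B and SOX10 below, summed to 30.1 and 20.8 in siLSD1, against 28.7 and 22.01 in siControl cells. HBB, the brightest tested blood, epithelial or Schwann cell marker, had a mean level of 4.44, near the filter at 3.62. COL3A1 was the brightest fibroblast marker, with a mean level of 8.76, ahead of LUM at 7.42. The neuroblastoma markers summed to 20855.5 and 20996.8 on the siLSD1 arrays, against 20509.3 and 24414.4 on the siControl arrays. The part of any of these markers in the ID and BAMBI values was not tested. In RNA from whole cultures, fewer cells of a type and less RNA per cell cannot be told apart.

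TCF4, the E protein also called E2-2, had 8 probe sets, and all 8 passed the filter. On its brightest, 212386_at, it had 12.17 and 12.27 on the siLSD1 arrays, against 12.10 and 11.97 on the siControl arrays. The groups did not overlap, and the difference was 0.19 (95% interval 0.026 to 0.35). This is 1.14-fold, and leaving out any 1 array gave 0.13 to 0.25.
The other TCF4 probe sets went from -0.092 to 0.58. On 213891_s_at the gene read 11.57 and 11.83 on the siLSD1 arrays, against 11.16 and 11.55 on the siControl arrays, a difference of 0.34. On 203753_at it read 11.001 and 10.83 in siLSD1, against 10.29 and 10.79 in siControl cells, a difference of 0.37 that was 0.12 without siControl replicate 1. In both, siControl replicate 1 was the lowest array and the groups did not overlap. The groups overlapped on 212382_at, which had the largest TCF4 difference, 0.58, and it was 0.26 without siControl replicate 1.
Not all probe sets of TCF4 had a higher siLSD1 mean. 212387_at read 11.28 and 11.19 on the siLSD1 arrays, against 11.34 and 11.29 on the siControl arrays, so both siLSD1 values were below both controls. Its difference was -0.079 and that of 222146_s_at was -0.092. Under median centring of the arrays both turned, to 0.026 and 0.027, where the median of all tested probe sets was 0.15. In all, 6 of the 8 TCF4 probe sets had a higher mean in siLSD1 and 2 a lower one.

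TCF3, which encodes the splice forms E12 and E47, was measured by 14 probe sets, of which 10 passed the filter. The brightest, 209153_s_at, read 10.003 and 10.23 on the siLSD1 arrays, against 10.31 and 9.98 on the siControl arrays. The siLSD1 values lay inside the range of the controls, and the difference was -0.029. It changed sign when single arrays were left out (-0.19 to 0.13). Under median centring it was 0.098, where the median of all tested probe sets was 0.15.
Among the other TCF3 probe sets, 5 were higher and 4 lower. On 210776_x_at the gene had 9.58 and 10.01 on the siLSD1 arrays, against 8.62 and 9.57 on the siControl arrays. The difference of 0.70 was 0.22 without siControl replicate 1, whose value was well below the other 3. On 213811_x_at it had 8.78 and 8.80 in siLSD1, against 8.59 and 8.62 in siControl cells, a difference of 0.18 with replicates closer together than the groups. Both of these carry probes that also match other sequences.
On 215260_s_at the difference was 0.17, with the groups apart, and on 209152_s_at TCF3 had 7.60 and 7.29 on the siLSD1 arrays, against 7.77 and 7.67 on the siControl arrays, a difference of -0.28. The largest TCF3 difference was 1.15 on 216645_at, where siControl replicate 1 read 2.85 and the other control 5.36. Without siControl replicate 1 it was -0.12. The 4 TCF3 probe sets below the filter had values from 1.44 to 4.97, and the groups overlapped on each.

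TCF12, the E protein also called HEB, had 4 probe sets, all above the filter. On the brightest, 208986_at, it had 10.62 and 10.66 on the siLSD1 arrays, against 10.65 and 10.39 on the siControl arrays. The groups overlapped, and the difference of 0.12 (95% interval -0.16 to 0.40) was -0.0091 without siControl replicate 2. The other 3 differed by -0.17, -0.41 and 0.45. The -0.17 turned to 0.025 under median centring, where the median of all tested probe sets was 0.15. On 215611_at, which had 3.85 and 4.29 in siLSD1 against 4.54 and 4.42 in siControl cells, both siLSD1 arrays were lower. TCF12 probe sets thus had 2 higher and 2 lower means.

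Averaged over all tested probe sets of a gene, the differences were 0.60 for ID1, 0.31 for ID2, 0.43 for ID3, 0.65 for ID4 and 0.48 for BAMBI. The same mean was 0.14 for TCF3, 0.18 for TCF4 and -0.0024 for TCF12. Whether ID genes differed more than E-protein genes was not tested, since the ID genes were chosen for this contrast. The plot with single arrays left out gives each gene's brightest probe set.

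**Figure D3:**
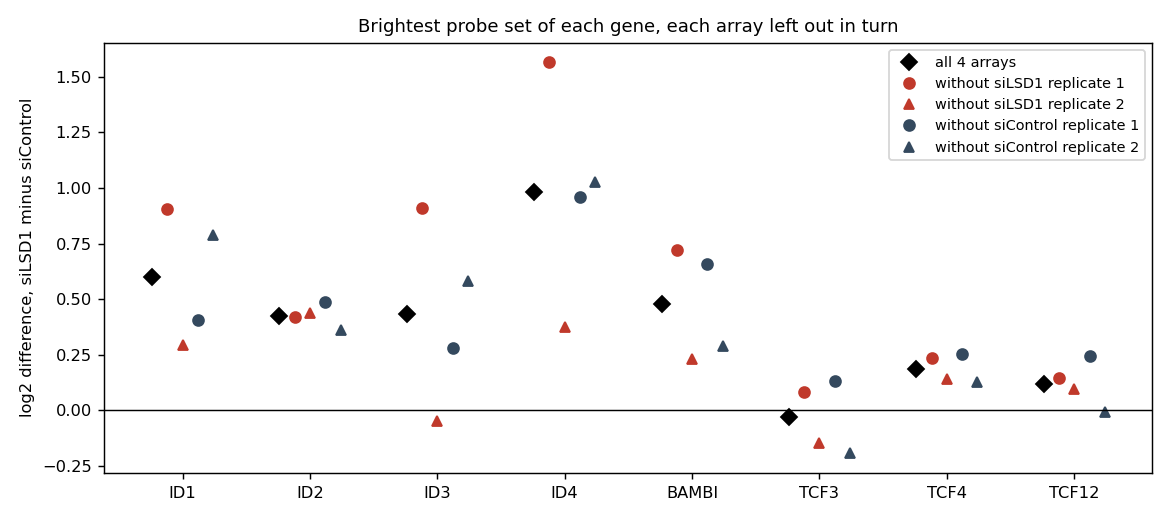
Difference in log2 signal, siLSD1 minus siControl, of the brightest probe set of each of the 8 genes with all 4 arrays (diamonds) and with each array left out in turn. ID2 stays between 0.36 and 0.49, ID3 is -0.047 without siLSD1 replicate 2, and ID4 goes from 0.37 to 1.56. TCF3 and TCF12 cross 0.

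Genes whose 4-array pattern was most like a member's were sought among the brightest tested probe sets of the 12876 genes, by the root mean square distance on the log2 scale after each gene's mean was subtracted. For ID1 these were LEF1-AS1 (0.024) and COL2A1 (0.040), where the median distance of all genes was 0.43. For ID2 they were MOB3C (0.020) and IGDCC4 (0.023), with a median distance of 0.29. ID3 was nearest to RHOT1 (0.062) and CPLANE2 (0.066), and ID4 to GAREM2 (0.065) and OLFML3 (0.14). BAMBI was nearest to NOTCH2NLA (0.012) and SLC46A3 (0.025). For the E proteins the nearest were CERK and DYNLT2 for TCF3, MYH10 and RANBP9 for TCF4, and LMAN2L and TIAM2 for TCF12, all at 0.0077 to 0.011. No ID gene was among the nearest 2 of another ID gene, which carries little meaning with 12876 candidate genes. Whether the ID genes shared a pattern was not tested. These distances rest on 4 arrays.

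The partners of the E proteins were then described from a list of tissue-specific bHLH factors, with 1 probe set, the brightest, for each gene. Of 34 measured factors 10 passed the filter and were tested, so most were too dim to enter. In limma 0 of the 10 passed the threshold in either direction (0% of the brightest probe sets of all genes did). Of the 10 factors 0 had an unadjusted p under 0.05 in limma, where 2.7% of all genes did. Their median difference was 0.11, with 6 higher and 4 lower, beside a median of 0.0068 and 51.2% higher over all genes. TWIST1, a mesenchymal factor that pairs with E proteins, read 11.12 and 11.43 on the siLSD1 arrays, against 9.32 and 11.06 on the siControl arrays. Its difference of 1.09 (adjusted p = 0.994 in limma) was set largely by the low value of siControl replicate 1. HAND1 had 9.99 and 9.72 on the siLSD1 arrays, against 10.04 and 10.14 on the siControl arrays, a difference of -0.23. HAND2, a factor of the noradrenergic lineage, differed by 0.10, the proneural NEUROG2 by -0.62 and LYL1 by -0.039, with groups that overlapped for these 3.

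HES and HEY repressors are bHLH proteins that also oppose proneural factors, and they act with the TLE corepressors, which are not bHLH proteins. The list of both had 14 measured genes, of which 8 passed the filter and were tested, 5 HES or HEY genes and 3 TLE genes. Of these 0 passed the threshold and 0 had an unadjusted p under 0.05 in limma. Their median was -0.028. Under median centring it was 0.092, where the median of all tested probe sets was 0.15. Of these genes 2 were higher and 6 lower, against 5 and 3 under median centring and 4 and 4 without any 1 of the 4 arrays. The 5 HES and HEY genes alone had a median of -0.040, with 1 higher and 4 lower. HEY1, a Notch and BMP target, had 8.83 and 9.17 on the siLSD1 arrays, against 8.78 and 8.48 on the siControl arrays, a difference of 0.37. TLE1 differed by 0.87, with a low siControl replicate 1 value (7.58, against 9.10 on the other control). TLE4 differed by -0.010, HES6 by -0.016 and TLE3 by -0.32, with groups that overlapped.

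BMP pathway genes upstream of the ID genes gave 0 calls as well. Of 16 measured ligands and antagonists 8 passed the filter and were tested. Of these 0 had an unadjusted p under 0.05 in limma, and the median was 0.072, with 5 higher and 3 lower. With 4 higher and 4 lower, it turned to -0.036 without siLSD1 replicate 2, -0.0034 without siControl replicate 1 and -0.023 without siControl replicate 2. Without the filter the median was 0.20, with 11 higher and 5 lower. The ligand BMP7 had 7.68 and 7.76 on the siLSD1 arrays, against 7.69 and 7.45 on the siControl arrays, a difference of 0.15. The extracellular modulator TWSG1 differed by 0.095, CHRDL1, a BMP antagonist, by 0.049, BMP8B by 0.25 and GDF5 by -0.24. For these 5 the groups overlapped. In the list the groups were apart for 0 higher and 2 lower genes, or 25%, where 32% of all genes were. The 2, named after their values were seen, were BMP6 (-1.02) and FST (-0.68). Both were dim, with mean levels of 3.66 and 4.10.

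Of 19 tested receptors, SMAD proteins and regulators, the siLSD1 mean was above the siControl mean in 16 and below it in 3, with a median of 0.13, and 0 passed the threshold or had an unadjusted p under 0.05 in limma. The counts were 18 higher and 1 lower under median centring, 11 higher and 8 lower without siLSD1 replicate 2, and 9 higher and 10 lower without siControl replicate 2, with a median of -0.066. The groups were apart for 4 higher and 2 lower genes, or 31.6%, where 32% of all genes were. SMAD9, a BMP-responsive SMAD, read 10.70 and 11.15 on the siLSD1 arrays, against 10.85 and 10.29 on the siControl arrays, a difference of 0.36 with overlapping groups. BMPR1B, a type I BMP receptor, differed by 0.20 and SMAD4, the shared partner of the pathway's SMADs, by -0.17, each with groups apart. SMAD5 differed by 0.064 and the SMAD-binding zinc finger protein ZNF423 by 0.088.

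The last was a background list of genes taken to be under E-box control by bHLH factors in general. Cell cycle inhibitors and noradrenergic genes were among them, and E-box control of the single genes was not tested. Of 11 measured genes 8 passed the filter and were tested, and 0 passed the threshold. The median was 0.014, with 4 higher and 4 lower, and it turned to -0.031 under the deposited scaling. Under median centring 5 were higher and 3 lower, where the median of all tested probe sets was 0.15. GATA3 had 11.65 and 11.68 on the siLSD1 arrays, against 11.59 and 11.45 on the siControl arrays, a difference of 0.15. DBH, the enzyme that makes noradrenaline, differed by -0.20, PHOX2A by -0.020, the cyclin CCND1 by 0.061 and CDKN1B by 0.047, all with overlapping groups.
The 2 genes of this list with an unadjusted p under 0.05 are named after their values were seen. They are 2 of 8, where 2.7% of all genes had such a p, and the count was 0 without siLSD1 replicate 2 and 1 without the mean-variance trend, against 3 without siControl replicate 1 and 3 with the replicate block. CDKN1A, the inhibitor p21 that E proteins induce, had 8.50 and 8.25 on the siLSD1 arrays, against 7.43 and 7.92 on the siControl arrays, a difference of 0.70 (adjusted p = 0.994 in limma). CDKN2A, the locus of p16, had 5.54 and 5.23 on the siLSD1 arrays, against 6.21 and 6.22 on the siControl arrays, a difference of -0.83 (adjusted p = 0.994 in limma). These 2 inhibitors thus lay on opposite sides. CDKN1C, an inhibitor also named after its values were seen, differed by -0.57 with groups apart, and CDKN1B by 0.047. In the list the groups were apart for 2 higher and 2 lower genes, or 50%, where 32% of all genes were.

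**Figure D4:**
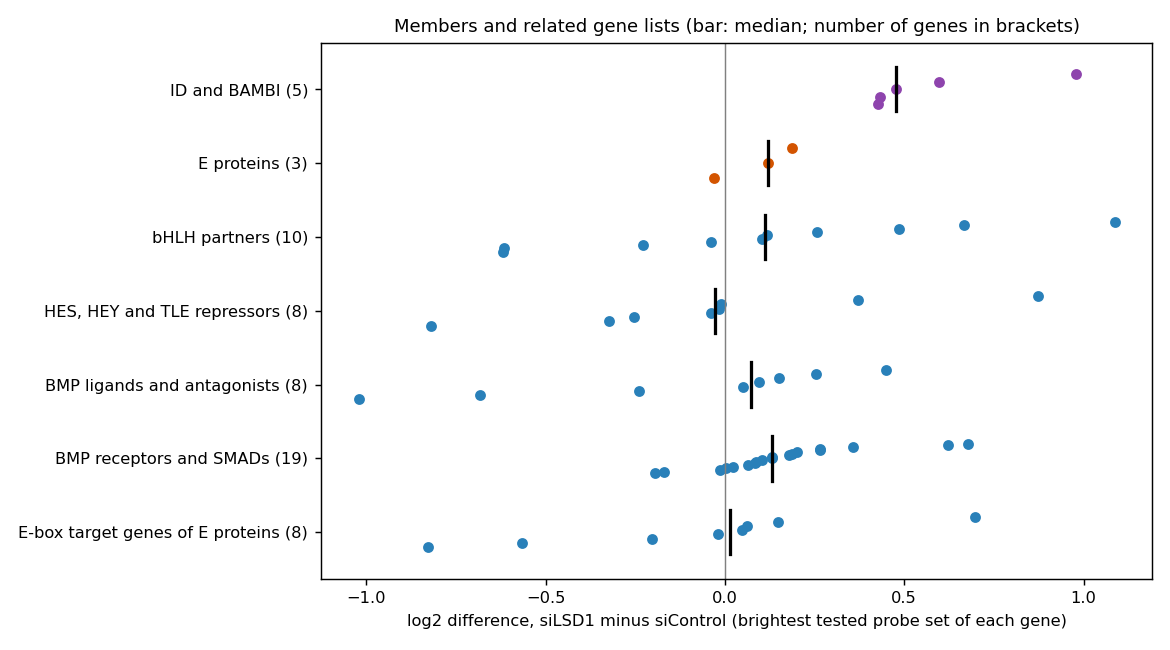
Differences in log2 signal, siLSD1 minus siControl, of the brightest tested probe set of each gene for the 5 ID and BAMBI genes, the 3 E-protein genes and the 5 related lists, with bars at the medians. The ID and BAMBI values were chosen for this contrast. List medians lie between -0.028 and 0.13.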

How the data were processed

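RNA from 4 cultures was hybridized to Affymetrix arrays. Per the labels, total RNA was column purified and biotin labelled, and groups and replicate numbers come from the sample titles, of which that of siLSD1 replicate 2 gives the target without its number. The deposited values are 1 log2 signal per probe set and array. The scale was found from the values, since the base-2 antilogs had a trimmed mean of 100.0 on each array after 2% was left out at each end. For the summary software nothing is given in the sources used here. The medians of the arrays ranged over 0.27, above a tolerance of 0.25, so the arrays were quantile normalized, which removes any difference in overall signal.

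Probe sets were named through the platform annotation, in which 41091 had 1 symbol, and 62 controls were left out. In 41037 of these the Entrez identifier matched RefSeq, and 0 symbols differed. The comparison used limma 3.58.1 under R 4.3.3 (lmFit, eBayes with trend, two-sided, no replicate term), with Benjamini-Hochberg adjustment over the 24655 tested probe sets. The moderated test had 7.28 degrees of freedom. With 2 arrays a group, the smallest p of an exact permutation test is 0.333. Same-numbered arrays deviated together with a correlation of -0.067, so the numbers were not taken as pairs. No arrays were identical. The fit was also run on simulated data with independent normal noise. The outcome is not given here, so nothing is read from it.

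The members and lists were chosen with earlier results of these data known. Named are all members, KDM1A, the 5 brightest tested genes of each list, and the 2 genes nearest to each member in pattern. Other list genes were named after their values were seen, as stated with them. Alternatives were the deposited scaling, median centring, no filter, no trend, a replicate block, 1 probe set per gene, the mean over probe sets, and leaving out each array.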

Additional observations from a re-analysis of the deposited data

How the results depend on the processing

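No probe set was called with all 4 arrays under the deposited scaling, median centring, no filter, no mean-variance trend or 1 probe set per gene, and 0 were called with the replicate block in limma, where 1004 had an unadjusted p under 0.05 in place of 818. The counts at that unadjusted level were 780 under the deposited scaling, 1223 under median centring, 1638 of 41091 without a filter, 897 without the trend and 409 of 11865 with 1 probe set per gene, where the percentile filter was also taken over genes. Leaving out 1 array leaves a group with 1 array, which is assumed to vary like the other group. It gave 0 to 5 calls, with 0 members among them: the lower HSP90AB1 without siLSD1 replicate 1, and the higher RARS1, RUVBL1, USP48, SELENOH and ZNF117 without siControl replicate 2. KDM1A ranged from -1.41 to -1.14 over all alternatives and was never called. The 5 lists had 0 calls in every setting run.

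The median difference of the members, 0.18 with all arrays, was 0.36 under median centring (25 higher, 4 lower), which moved the median of all tested probe sets to 0.15, and 0.37 as a median of gene means over 8 genes. It was 0.13 to 0.24 with 1 array left out. Under the deposited scaling or median centring 6 of 22 E-protein probe sets changed sign, and no ID or BAMBI probe set did. These scalings moved the median of all tested probe sets by -0.014 and 0.16, and the smallest ID or BAMBI difference was 0.20. A change of sign was thus unlikely for the ID and BAMBI probe sets, and nothing is read from its absence. With 1 array left out 10 of 29 changed sign, 3 of them ID probe sets, and 26 changed sign or moved by over 1.5 times. Of 45 list medians under alternatives, 15 moved by more than 1 SD of the arrays. With 1 array left out the medians ranged from 0.016 to 0.19 for bHLH partners, -0.12 to 0.060 for HES, HEY and TLE repressors, -0.036 to 0.16 for BMP ligands and antagonists, -0.066 to 0.28 for BMP receptors and SMADs and -0.075 to 0.017 for E-box genes. Without the filter the medians were 0.042, -0.18, 0.20, 0.13 and 0.061, in the same order of lists. The causes were not tested. With 2 arrays a group, differences of the size seen in most members were smaller than 0.72, the median interval half-width over all tested probe sets. Bright members had narrower intervals, such as 0.026 to 0.35 for TCF4 on 212386_at.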
